A study of Mus musculus with 8 samples.

Results

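The 10 genes studied here belong to the core pluripotency and reprogramming machinery of mouse cells: Pou5f1, Sox2, Sall4, Utf1, Zfp296, Nr0b1, Lin28a, Trim71, Fbxo15 and Tcl1. Their expression was measured by RNA-seq in 8 libraries of induced pluripotent stem cells (iPSCs), which are body cells reprogrammed to pluripotency. They were chosen by symbol, 10 of the 23284 gene symbols of the expression table, and all 10 passed the filter of a mean of 1 FPKM or more in every comparison. FPKM counts fragments relative to transcript length and library size, so levels of different genes can be set side by side per length. The knock-in (KI) line was ColA1_miR203 (KI/KI); Rosa26rtTA (KI/KI), in which doxycycline (dox) induces miR-203, a microRNA of differentiating epithelia. Its dox libraries (n = 2) came from clones 1 and 2, which received dox for 5 days and were harvested 2 weeks after it was withdrawn, and its vehicle libraries (n = 2) from clones also numbered 1 and 2. The wild-type (WT) line was ColA1_miR203 (+/+); Rosa26rtTA (+/+), and was transfected with siRNA against Dnmt3a (siDnmt3a), against Dnmt3b (siDnmt3b), against both (the double siRNA) or with a control siRNA (siControl), and collected 1 week later, with 1 library per group. All cells had been reprogrammed from mouse embryonic fibroblasts and were grown over feeder cells. The labels do not say that libraries came from separate cultures, so p-values measure only the spread between these libraries, which may be technical. No source used here gives the reprogramming vectors, and values for Pou5f1 and Sox2 cannot be divided into endogenous and introduced copies.

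Pluripotency is held by a small circuit of transcription factors that bind their own and each other's control regions. Oct4, the product of Pou5f1, and Sox2 bind DNA as a pair at many of these regions, and zinc finger proteins such as Sall4 and Zfp296 and the nuclear receptor family protein Nr0b1 (Dax1) act with them in mouse embryonic stem cells. A second arm acts on RNA: Lin28a blocks the maturation of let-7 microRNAs, and let-7 in turn represses Lin28a and Trim71 through sites in their 3′ untranslated regions.

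The study set miR-203 exposure beside siRNA against the de novo DNA methyltransferases, so the seeds of both microRNAs and the CpG sites of the promoters bear on what follows. The mature microRNAs are printed from RefSeq (GRCm38.p6), with the seed, bases 2 to 8, in capitals; miR-203-3p is encoded on the plus strand at chr12:112130927-112130948, and let-7a-5p on the minus strand at chr13:48538239-48538260.
miR-203-3p: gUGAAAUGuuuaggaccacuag
let-7a-5p: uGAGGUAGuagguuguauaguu
The site that pairs with the miR-203-3p seed, CATTTCA, was absent from the 3′ untranslated regions of all 10 genes, against 15.9% of 20931 genes that hold it (GENCODE M21, longest coding transcript of each gene). The let-7 site, CTACCTC, was present in 3 of the 10 genes, Sall4, Lin28a and Trim71, against 8.81% of 20931 genes. Sall4 had 1 match, Lin28a had a pair starting at bases 909 and 1547 of the untranslated region, and Trim71 had 4, of which those at 3591 and 3617 lie next to each other. They are shown because the RNA-binding arm is known for these sites; capitals mark the match, and the number is its first base in the untranslated region.
Sall4, 1082: ctttaatttatCTACCTCaattatctttat
Lin28a, 909: agcctgttgaaCTACCTCatttttgccgat
Lin28a, 1547: tcgccacaaacCTACCTCactgtgttgaaa
Trim71, 166: ttgcctaagtcCTACCTCagcttaaatttt
Trim71, 262: ataatttctatCTACCTCaactctttgcat
Trim71, 3591: gtatggattttCTACCTCaattttggcaaa
Trim71, 3617: caaaaagttgtCTACCTCacgtcggcaccg
A match is a description of the letters and does not show that a site was used.

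Of the 10 genes, 8 had a promoter entry in RefSeq, and 4 of those are printed because their genes were those with an entry that were called lower with dox (Utf1, Zfp296 and Nr0b1) or the one furthest from siControl with the double siRNA (Pou5f1). Each run is the 250 bases before the annotated start, on the plus strand of GRCm38.p6, with each CG in capitals; the windows are chr17:35505782-35506031 for Pou5f1, chr7:139943606-139943855 for Utf1, chr7:19577037-19577286 for Zfp296 and chrX:86191525-86191774 for Nr0b1.
Pou5f1: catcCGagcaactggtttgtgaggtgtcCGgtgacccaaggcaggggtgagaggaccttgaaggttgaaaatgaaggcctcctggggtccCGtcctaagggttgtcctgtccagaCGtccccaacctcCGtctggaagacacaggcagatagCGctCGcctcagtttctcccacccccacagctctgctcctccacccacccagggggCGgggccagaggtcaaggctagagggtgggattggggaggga
Utf1: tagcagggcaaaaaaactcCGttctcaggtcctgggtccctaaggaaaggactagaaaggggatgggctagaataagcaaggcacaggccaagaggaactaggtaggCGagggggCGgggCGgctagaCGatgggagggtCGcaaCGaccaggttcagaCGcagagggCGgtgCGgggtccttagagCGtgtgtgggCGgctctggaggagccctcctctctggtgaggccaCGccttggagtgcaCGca
Zfp296: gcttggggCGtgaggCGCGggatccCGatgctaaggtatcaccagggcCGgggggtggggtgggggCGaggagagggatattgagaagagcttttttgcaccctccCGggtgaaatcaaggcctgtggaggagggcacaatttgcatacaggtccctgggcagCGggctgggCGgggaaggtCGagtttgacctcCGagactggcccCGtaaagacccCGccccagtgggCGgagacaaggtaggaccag
Nr0b1: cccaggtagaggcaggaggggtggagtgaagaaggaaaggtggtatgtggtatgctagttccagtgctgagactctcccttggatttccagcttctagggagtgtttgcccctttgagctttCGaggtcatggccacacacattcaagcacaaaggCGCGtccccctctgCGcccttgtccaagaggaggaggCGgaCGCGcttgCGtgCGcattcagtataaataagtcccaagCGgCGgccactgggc
These held 8 CG in Pou5f1, 14 in Utf1, 14 in Zfp296 and 11 in Nr0b1, against a median of 6 over 32851 promoters. Among the others, Sox2 had 27, more than 91.4% of all promoters, Trim71 had 17, and Lin28a and Tcl1 had 7 each. The octamer ATGCAAAT, a letter sequence bound by POU-domain proteins, was searched on both strands. It was found in 1 of the 8 promoters, that of Zfp296, on the minus strand with its first base at -111 from the start, against 1.60% of 32851 promoters. The GC box GGGCGG was in 6 of the 8, against 32.7% of promoters, with 4 matches in Utf1 and 3 in Zfp296, and TATAAA was in Nr0b1 at -32, against 12.4%. The SOX letters CATTGTT were in none, against 3.29%.

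Pou5f1 was the highest of the 10 per length in every library, at 855 to 1223 FPKM, and ranked between 89 and 100 among all gene symbols. Its lowest and highest library differed 1.43-fold, and those of Sox2 1.31-fold and of Trim71 1.36-fold, the 3 narrowest ranges. Tcl1 had the widest range at 5.58-fold, followed by Utf1 at 3.28-fold and Lin28a at 3.01-fold. Within the 4 WT libraries no gene of the 10 ranged beyond 1.38-fold, so the wide ranges lay between the lines or among the KI libraries. For Lin28a the clones are part of that range. Clone 2 was below clone 1 in dox (55.5 against 78.1 FPKM) and in vehicle (84.1 against 120.0 FPKM). In order of level, Pou5f1 came first in all 8 libraries, and Zfp296, Trim71 and Tcl1 were the 3 lowest in the WT libraries.

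**Figure D1:**
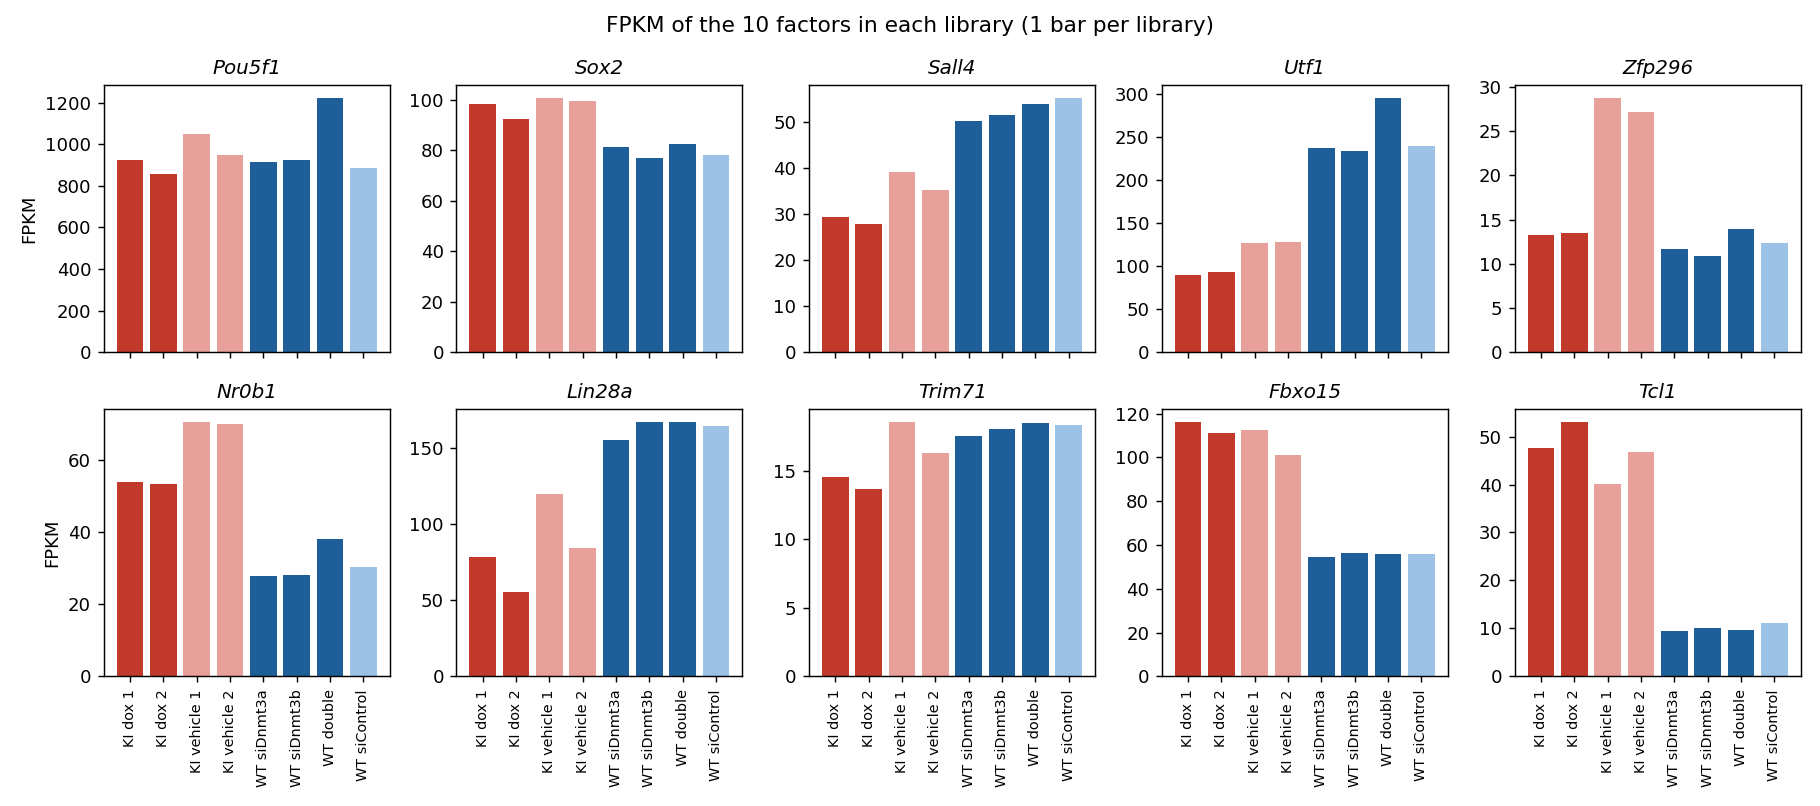
FPKM of the 10 genes (1 panel each, linear axis from 0) in each of the 8 libraries, with 1 bar per library and no error bars; dark red bars are KI dox, light red KI vehicle, dark blue the 3 WT siRNA libraries and light blue WT siControl. Zfp296 was at 13.3 and 13.5 FPKM in KI dox against 28.8 and 27.2 FPKM in KI vehicle, and Tcl1 was at 40.2 FPKM or more in all KI libraries against 11.1 FPKM or less in all WT libraries.

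At 2 weeks after dox withdrawal, 4 genes of the transcription factor circuit were lower in the KI line. Of the 10 genes, in the fit without the clone as a block, Zfp296, Utf1, Nr0b1 and Sall4 fell, none rose, and 6 did not pass (limma, adjusted p of 0.05 or less). Over all 11927 genes tested, 31.9% were called, 17.1% higher and 14.8% lower. The median difference of the 10 genes was -0.33 on the log2(FPKM + 1) scale, against -0.01 over all genes. All differences below are on that scale, which understates changes of low genes.

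Among the core factors, Pou5f1 was at 922 and 855 FPKM in dox libraries of clones 1 and 2, against 1048 and 947 FPKM in vehicle libraries. The dox libraries lay below the vehicle libraries, and the difference of -0.17 did not pass (SE 0.0793, limma adjusted p = 0.150), but did once clone was added as a block (limma adjusted p = 0.0109). Sox2, the HMG-box partner of Oct4, was at 98.3 and 92.2 FPKM in dox against 101 and 99.4 FPKM in vehicle, without overlap, a difference of -0.07 (SE 0.0713, limma adjusted p = 0.467). Sall4, a zinc finger factor that activates Pou5f1, was at 29.4 and 27.7 FPKM in dox against 39.0 and 35.3 FPKM in vehicle. Both dox libraries were below both vehicle libraries, and Sall4 fell by 0.37 (SE 0.0858, limma adjusted p = 0.0226).

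Among the partner factors, all 3 fell. Zfp296, a zinc finger protein that promotes reprogramming in mouse cells, was at 13.3 and 13.5 FPKM in dox against 28.8 and 27.2 FPKM in vehicle. Its means were 13.4 ± 0.135 FPKM in dox and 28.0 ± 1.11 FPKM in vehicle (SD, n = 2 each), and it fell by 1.01 (SE 0.0801, limma adjusted p = 6.04e-04), the largest fall of the 10. Its exons overlap those of Gemin7 on the opposite strand, and Gemin7 was at 40.7 and 36.8 FPKM in dox against 37.3 and 39.0 FPKM in vehicle, overlapping. Utf1, a chromatin-associated factor of undifferentiated cells, was at 90.1 and 93.0 FPKM in dox against 127 and 128 FPKM in vehicle. The groups were far apart relative to the spread between clones, and Utf1 fell by 0.48 (SE 0.0672, limma adjusted p = 0.00433). Nr0b1, an orphan member of the nuclear receptor family that binds Oct4 in mouse embryonic stem cells, was at 54.0 and 53.5 FPKM in dox against 70.6 and 69.9 FPKM in vehicle. It fell by 0.38 (SE 0.0689, limma adjusted p = 0.0104), again without overlap.

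The 2 RNA regulators did not pass in the fit without the clone block, and both did with it (limma adjusted p = 1.58e-05 for Lin28a and 0.00901 for Trim71). Lin28a was at 78.1 and 55.5 FPKM in dox against 120.0 and 84.1 FPKM in vehicle. The groups did not overlap, but clone 2 was below clone 1 in both, by 0.48 in dox and 0.51 in vehicle, and the difference of -0.60 did not pass (SE 0.206, limma adjusted p = 0.0674). Trim71, an RNA-binding ubiquitin ligase, was at 14.5 and 13.7 FPKM in dox against 18.6 and 16.3 FPKM in vehicle, a difference of -0.29 (SE 0.0956, limma adjusted p = 0.0629). With Sall4 they are the 3 genes with a let-7 site, and their differences lay between -0.29 and -0.60. The genes without a site lay between -1.01 for Zfp296 and 0.21 for Tcl1, a range that spans those values. No test was made of that grouping, and the level of let-7 was not examined.

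The remaining 2 genes had positive differences. Fbxo15, an F-box gene used as a reporter of reprogramming, was at 116 and 111 FPKM in dox against 113 and 101 FPKM in vehicle, and it alone of the 10 overlapped between the groups (difference 0.09, SE 0.0801, limma adjusted p = 0.417). Tcl1, a coactivator of the kinase Akt, was at 47.6 and 53.1 FPKM in dox against 40.2 and 46.8 FPKM in vehicle, without overlap (difference 0.21, SE 0.102, limma adjusted p = 0.156). The other 9 genes did not overlap, which was so for 72.2% of all genes tested.

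The clone numbers are shared between the groups, and each of the 10 genes differed in the same direction in both clones, 8 below vehicle and 2 above. For the 9 genes without overlap between dox and vehicle this direction was fixed by the lack of overlap, so it adds nothing for them. The share of all genes that did so was not computed, but it is at least the 72.2% that did not overlap. With the clone as a replicate block, 8 of the 10 were called, against 6242 of all 11927 genes tested. The 4 calls gained were Lin28a, Trim71 and Pou5f1, all lower, and Tcl1, higher (limma adjusted p = 0.0158). With the block and a correction for GC content and length, Fbxo15 was called higher as well (0.19, limma adjusted p = 0.0286). Leaving out 1 library leaves its group with a single library, which is then assumed to vary like the other group. Without vehicle replicate 1 only 2 remained called, Zfp296 and Utf1: Nr0b1 had adjusted p = 0.0648 and Sall4 adjusted p = 0.139. Without dox replicate 2, Sall4 had adjusted p = 0.0644. Lin28a was called without dox replicate 1 (adjusted p = 0.00474) or without vehicle replicate 2 (adjusted p = 0.0186). Over all alternatives the limma adjusted p lay between 8.48e-04 and 0.223 for Sall4, 4.18e-04 and 0.170 for Nr0b1, 1.58e-05 and 0.246 for Lin28a, 0.00189 and 0.531 for Trim71, 0.00159 and 0.557 for Pou5f1, 0.0158 and 0.605 for Tcl1, and 0.0286 and 0.936 for Fbxo15. Zfp296 and Utf1 passed under every alternative run.

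The libraries also differed in markers of other cells. Markers of the feeder fibroblasts summed to 4445 to 4658 FPKM in dox against 1502 to 1775 FPKM in vehicle, and 31 of 34 tested rose, 1 fell and 2 did not pass. None of these markers was at 0 in the KI libraries. Macrophage markers summed to 450 to 549 FPKM in dox against 360 to 370 FPKM in vehicle, and 5 of 10 rose. Primitive endoderm markers summed to 76.1 to 86.6 FPKM in dox against 35.7 to 46.3 FPKM in vehicle, and 2 of 4 tested rose, Dab2 and Col4a1. The largest part of that sum was Col4a1, a collagen gene, at 64.0 and 68.1 FPKM in dox against 28.0 and 34.4 FPKM in vehicle. Sox17, Sox7 and Foxa2 of the same list were at 0.254 FPKM or less in all KI libraries. Trophoblast markers summed to 27.2 to 28.1 FPKM in dox against 15.1 to 20.6 FPKM in vehicle. Of 4 tested, 3 rose, Eomes, Krt8 and Krt18, and Tfap2a did not pass (-0.22). The largest part of that sum was Krt8, a keratin gene, at 15.5 and 15.4 FPKM in dox against 7.45 and 8.85 FPKM in vehicle. Cdx2, Elf5, Hand1 and Tpbpa of the same list were at 0.1005 FPKM or less in all KI libraries. In bulk libraries, fewer cells of a type and less RNA per cell cannot be told apart, and the part of any of these cells in the differences was not tested. In an alternative chosen after seeing the data, each library was divided by its own level of Pou5f1, a gene of pluripotent cells. Pou5f1 is itself 1 of the 10 genes and lay lower in both dox libraries. The scaling therefore cannot measure the share of pluripotent cells in a library. On that scale Zfp296 differed by -0.85 (limma adjusted p = 3.08e-04, within a range of 2.49e-06 to 0.0105 over all alternatives), Lin28a by -0.43 (limma adjusted p = 0.0363) and Utf1 by -0.31 (limma adjusted p = 0.0428, range 6.13e-05 to 0.0428), and Sall4 and Nr0b1 did not pass (adjusted p = 0.223 and 0.170). This scaling adds the same 0.17 to every gene, which alone puts Sox2 above vehicle, at 0.10. The median of all genes moved to 0.16, and the split of calls was 2647 higher and 524 lower, against 2035 higher and 1767 lower as deposited.

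**Figure D2:**
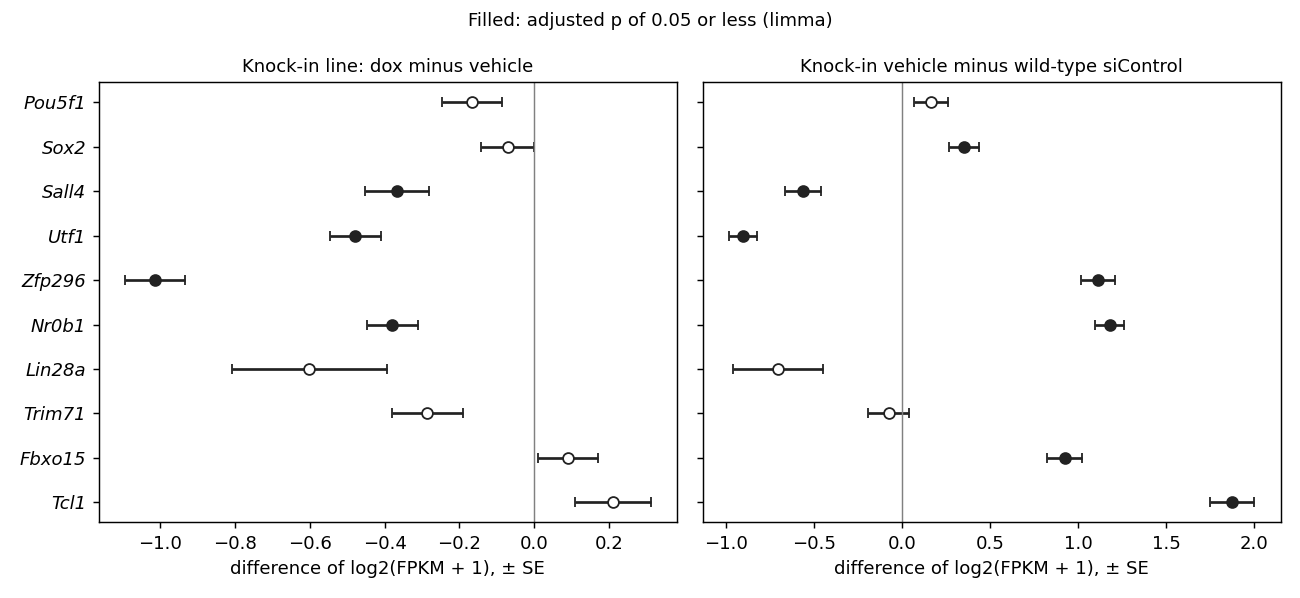
Differences of log2(FPKM + 1) for the 10 genes with bars of ± 1 SE from limma, for KI dox minus KI vehicle (left) and KI vehicle minus WT siControl (right); filled points have a limma adjusted p of 0.05 or less. With dox, 4 points are filled and lie below 0, with Zfp296 lowest at -1.01; between the lines, 7 are filled, from -0.90 for Utf1 to 1.88 for Tcl1.

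Other genes of the pluripotency network, from a list of 40 that leaves out the 10, moved in both directions with dox. Of 39 tested, 7 rose, 14 fell and 18 did not pass, with a median of -0.23 against -0.01 over all genes. Etv4, an ETS factor downstream of FGF signalling, was at 22.7 and 19.01 FPKM in dox against 48.0 and 51.6 FPKM in vehicle, and fell by 1.22 (limma adjusted p = 7.70e-04). Dppa2, a chromatin factor of pluripotent cells, was at 31.8 and 25.7 FPKM in dox against 57.0 and 50.1 FPKM in vehicle, and fell by 0.88. Dppa5a, an RNA-binding protein gene of pluripotent cells, was at 1870.3 and 1978 FPKM in dox against 1164 and 1007 FPKM in vehicle, and rose by 0.83. Rex2, a zinc finger gene low in all libraries, was at 1.36 and 0.633 FPKM in dox against 3.04 and 2.01 FPKM in vehicle, and fell by 0.83. Of 7 tested markers that define iPSCs, 3 rose, 1 fell and 3 did not pass. The list summed to 3314 to 3388 FPKM in dox against 2363 to 2676 FPKM in vehicle. Dppa5a is on this list too and was the largest part of the sum in each KI library. Of the others, Esrrb rose by 0.25 and Alpl by 0.58, while L1td1 fell by 0.59. Fut4, a fucosyltransferase gene, was the marker under 1 FPKM in all KI libraries, at 0.118 to 0.212 FPKM, and it was at 1.68 to 1.97 FPKM in the WT libraries.

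Genes tied to single members were read from lists of known partners and targets. Among 20 genes of the Lin28 and let-7 axis, 3 rose, 4 fell and 13 did not pass with dox. The cyclin gene Ccnd2 was at 35.4 and 33.3 FPKM in dox against 19.3 and 20.9 FPKM in vehicle and rose by 0.74, while Lin28b, the paralog of Lin28a, was at 4.92 and 3.87 FPKM in dox against 6.51 and 6.25 FPKM in vehicle and fell by 0.46. Prdm1 rose by 0.82 and the cell cycle phosphatase gene Cdc25a fell by 0.48. Cdkn1a, a cell cycle inhibitor that Trim71 represses in mouse embryonic stem cells, was at 166 and 197 FPKM in dox against 132 and 133 FPKM in vehicle, and rose by 0.45 (limma adjusted p = 0.0166). Akt1, the partner of Tcl1, rose by 0.51, and Akt2 and Mtcp1 did not pass. The Tcl1b genes, the other close relatives of Tcl1, were at 0.133 FPKM or less in all 8 libraries.

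Paralogs of Sall4, Sox2 and Pou5f1 were also compared. Of 11 tested, 1 rose, 3 fell and 7 did not pass with dox. Pou3f1, a POU factor of primed and neural cells, was at 0.730 and 0.621 FPKM in dox against 4.17 and 4.15 FPKM in vehicle, and fell by 1.62. Sox11 was at 1.35 and 1.48 FPKM in dox against 3.59 and 3.76 FPKM in vehicle and fell by 0.95, and Sox4 was at 10.3 and 9.73 FPKM in dox against 5.23 and 4.30 FPKM in vehicle and rose by 0.94. Pou2f1 fell by 0.54.

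The KI line without dox and the WT line with siControl were compared to show how far the 10 genes differed between the lines. The lines differ in genotype, mice of origin, clone and transfection, which cannot be told apart, and the single siControl library was assumed to vary like the KI libraries. Of the 10 genes, 5 were higher and 2 lower in KI vehicle, and 3 did not pass, against 44.7% of 12036 genes called, 25.2% higher and 19.5% lower. Tcl1 was at 40.2 and 46.8 FPKM in KI vehicle against 11.1 FPKM in siControl, and was higher by 1.88 (SE 0.126, limma adjusted p = 1.49e-04). Nr0b1 was at 70.6 and 69.9 FPKM in KI vehicle against 30.4 FPKM in siControl, higher by 1.18 (limma adjusted p = 1.72e-04). The mean of the KI vehicle libraries was 3.92-fold that of siControl for Tcl1 and 2.31-fold for Nr0b1.

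Zfp296 was at 28.8 and 27.2 FPKM in KI vehicle against 12.4 FPKM in siControl, higher by 1.11 (limma adjusted p = 4.07e-04), and the KI dox libraries at 13.3 and 13.5 FPKM lay near the siControl value. Fbxo15 was at 113 and 101 FPKM in KI vehicle against 55.8 FPKM in siControl, higher by 0.92 (limma adjusted p = 7.90e-04). Sox2 was at 101 and 99.4 FPKM in KI vehicle against 78.2 FPKM in siControl, higher by 0.35 (limma adjusted p = 0.0178). The Sox2 call was lost without vehicle replicate 1 (adjusted p = 0.0714) and without vehicle replicate 2 (adjusted p = 0.0650), within a range of 0.0138 to 0.251 over all alternatives.

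On the lower side, Utf1 was at 127 and 128 FPKM in KI vehicle against 240.1 FPKM in siControl, a difference of -0.90 (limma adjusted p = 3.97e-04). Sall4 was at 39.0 and 35.3 FPKM in KI vehicle against 55.2 FPKM in siControl, a difference of -0.56 (limma adjusted p = 0.00656). Lin28a was at 120.0 and 84.1 FPKM in KI vehicle against 164 FPKM in siControl, and the difference of -0.70 did not pass (SE 0.256, limma adjusted p = 0.0656). Lin28a was called without vehicle replicate 1 (-0.96, adjusted p = 0.0170), without dox replicate 1 (adjusted p = 0.0104) and without dox replicate 2 (adjusted p = 0.00956), within a range of 8.19e-04 to 0.211. Pou5f1 differed by 0.17 and Trim71 by -0.07, neither past the threshold (limma adjusted p = 0.207 and 0.630).

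For Utf1, Sall4 and Lin28a the dox libraries were therefore the lowest of all 8 and the WT libraries the highest. Markers of other cells differed between the lines too. Neural progenitor markers summed to 9.28 to 10.5 FPKM in KI vehicle against 60.7 FPKM in siControl, with Sox1 at 1.76 and 1.75 FPKM against 32.8 FPKM, and 2 of the 8 markers were at 0 in each KI vehicle library. Feeder fibroblast markers summed to 1502 to 1775 FPKM in KI vehicle against 828 FPKM in siControl and macrophage markers to 360 to 370 FPKM against 186 FPKM; the part of these cells in the differences was not tested. Among the paralogs, 8 of 12 tested were lower, 1 was higher and 3 did not pass, and Pou3f1 was at 4.17 and 4.15 FPKM against 33.3 FPKM. Among the other 39 network genes tested, 19 were higher, 4 were lower and 16 did not pass.

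**Figure D3:**
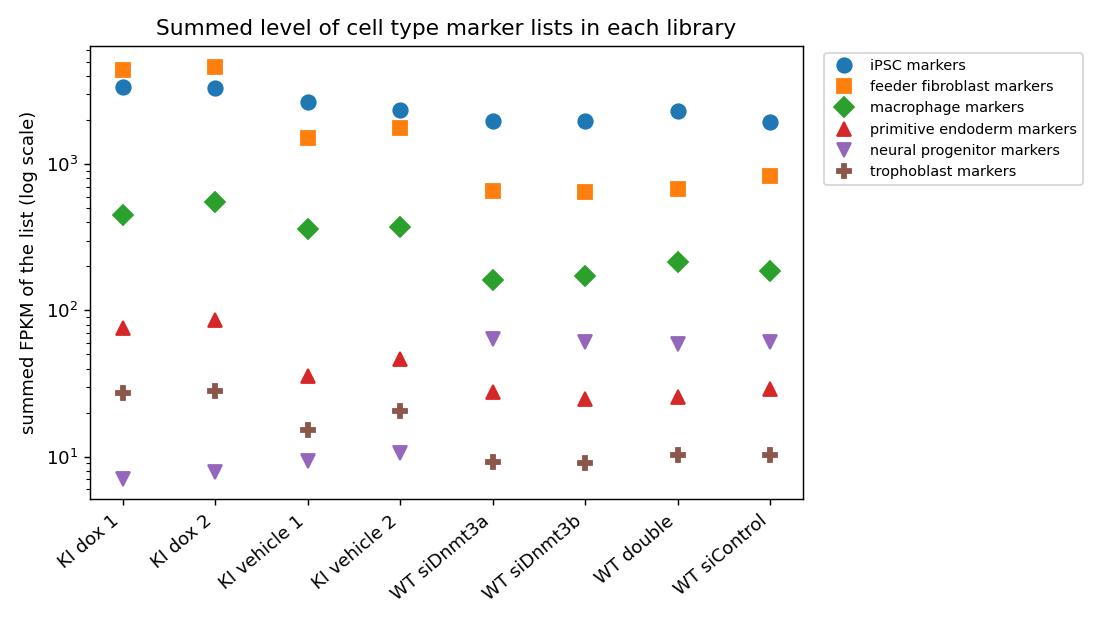
Summed FPKM (log axis) of 6 lists of cell type markers in each of the 8 libraries, 1 point per list and library. Feeder fibroblast markers reach 4445 FPKM or more in KI dox against 1775 FPKM or less in KI vehicle and 828 FPKM in WT siControl, and neural progenitor markers are at 10.5 FPKM or less in all KI libraries against 58.9 FPKM or more in all WT libraries.

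In WT iPSCs the siRNA targets were measured first. Dnmt3a, a de novo DNA methyltransferase, was at 59.8 FPKM with siDnmt3a and 69.5 FPKM with the double siRNA, against 75.1 FPKM in siControl. Dnmt3b was at 128 FPKM with siDnmt3b and 135 FPKM with the double siRNA, against 146 FPKM in siControl, and it was also at 135 FPKM with siDnmt3a, which does not target it. Both transcripts were thus still measured at 59.8 FPKM or more in every WT library.

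With a single siRNA, none of the 10 genes differed from siControl by 0.32 or more on the log2 scale, the threshold used for these comparisons without replicates. In the siDnmt3a library 3.51% of 11768 genes did, and the 10 genes lay between -0.20 for Tcl1 and 0.06 for Sox2, with a median of -0.07 against 0.00 over all genes. In the siDnmt3b library 2.87% of 11727 genes did, and the 10 genes lay between -0.17 for Zfp296 and 0.05 for Pou5f1, with a median of -0.03. With 1 library per group these differences could not be set against replicates and carry no p-value. All 3 siRNA comparisons share the siControl library.

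With the double siRNA, 15.1% of 11723 genes were past this threshold, 7.46% higher and 7.62% lower, and of the 10 genes Pou5f1 was. Pou5f1 was at 1223 FPKM with the double siRNA, 915 FPKM with siDnmt3a and 922 FPKM with siDnmt3b, against 888 FPKM in siControl, a difference of 0.46 for the double siRNA. Nr0b1 was at 38.2 FPKM with the double siRNA, 28.0 FPKM with siDnmt3a and 28.1 FPKM with siDnmt3b, against 30.4 FPKM in siControl. Utf1 was at 296 FPKM with the double siRNA, 238 FPKM with siDnmt3a and 234 FPKM with siDnmt3b, against 240.1 FPKM in siControl. Nr0b1 at 0.318 and Utf1 at 0.301 lay just under the threshold of 0.322, Nr0b1 was past it with a pseudocount of 0.1 (0.326), and for all 3 genes the double siRNA library was the highest of the 4 WT libraries. The lowest difference was that of Tcl1 at -0.19, and Fbxo15, Trim71, Lin28a, Sall4 and Sox2 lay between -0.04 and 0.07.

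Across all genes the double siRNA differences followed the GC content and length of transcripts, with Spearman's rho of 0.511 and -0.517; genes are not independent replicates. The transcripts of Utf1 (63.5% GC, 1227 bases), Zfp296 (59.5%, 1530 bases) and Pou5f1 (57.6%, 1362 bases) were richer in GC and shorter than the medians of 50.3% and 3046 bases. After correction for both, Pou5f1 was at 0.24, Nr0b1 at 0.17, Utf1 at 0.01 and Zfp296 at -0.06, and none of these was past the threshold. Tcl1 was then at -0.34, past it on the lower side. The direction of Zfp296 thus turned with the correction.

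**Figure D4:**
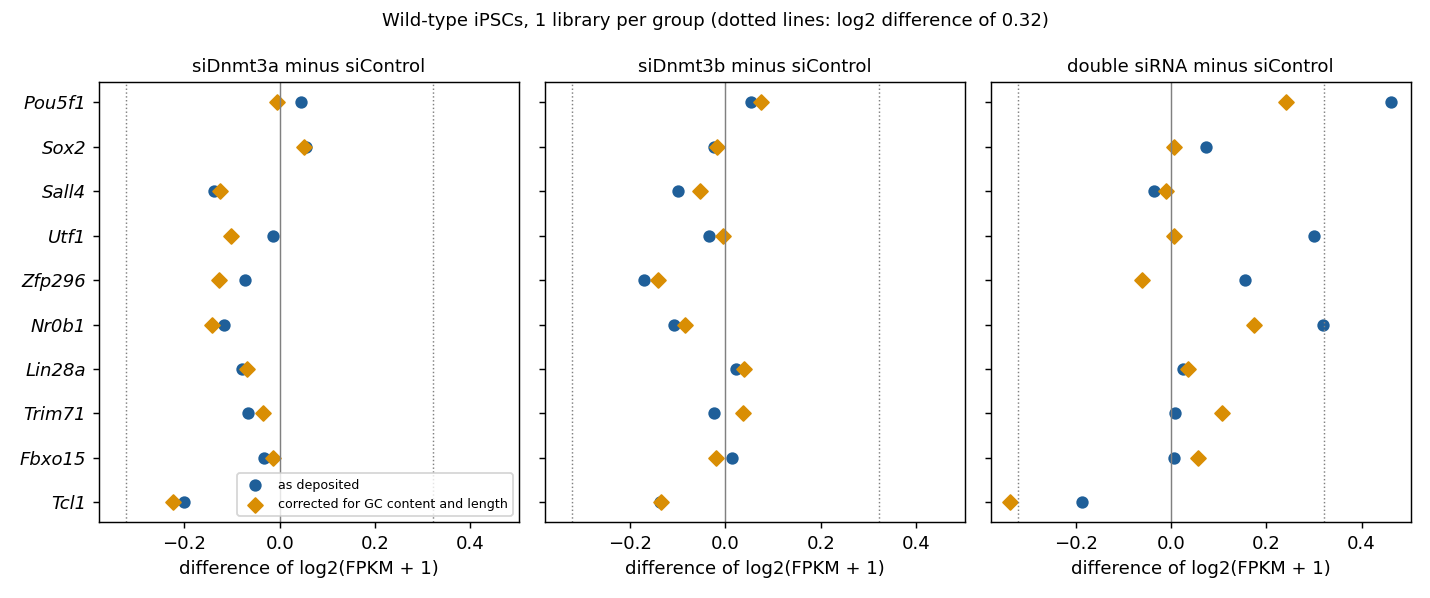
Differences of log2(FPKM + 1) from WT siControl for the 10 genes with siDnmt3a (left), siDnmt3b (middle) and the double siRNA (right), 1 library per group, as deposited (circles) and corrected for GC content and length (diamonds); dotted lines mark a difference of 0.32 in either direction. In the double siRNA panel Pou5f1 lies at 0.46 as deposited and 0.24 corrected, and Utf1 at 0.30 and 0.01, while in both other panels all points lie inside the dotted lines.

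The 4 WT libraries also form a design in which each siRNA is present or absent with the other, which allowed an additive limma fit whose residual, 1 degree of freedom per gene, is the interaction. None of the 10 genes was called for the Dnmt3a siRNA or for the Dnmt3b siRNA, where 2.09% and 0.452% of 11716 genes were called, and none of the 10 had an unadjusted p under 0.05, against 1508 and 584 of all genes. The largest effects of the 10 were those of Pou5f1, at 0.23 for the Dnmt3a siRNA (SE 0.147, limma adjusted p = 0.562) and 0.24 for the Dnmt3b siRNA (SE 0.147, limma adjusted p = 1.00). For Pou5f1 the Dnmt3a siRNA differed by 0.04 alone and by 0.41 with the other siRNA present, and the Dnmt3b siRNA by 0.05 and 0.42. Its fitted effects average these values, so they rest on the double siRNA library and describe neither siRNA alone. The double siRNA library exceeded the sum of both single differences for all 10 genes, by 0.02 for Fbxo15 to 0.54 for Nr0b1, with a median of 0.18. Over all genes this was so for 54.6%, with a median of 0.03 and an SD of 0.240. After correction for GC content and length, 9 of the 10 were above 0, with a median of 0.11. The share over all genes was not computed after the correction. All 10 values share the same double siRNA and siControl libraries, so they are not independent.

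In the same WT libraries, 1 of 38 tested network genes was past the threshold of 0.32 on the higher side and 4 on the lower side with the double siRNA, 1 lower with siDnmt3a and 1 lower with siDnmt3b. Rif1, a chromatin protein, differed by -0.78 with the double siRNA, -0.22 with siDnmt3a and 0.01 with siDnmt3b. Of the Lin28 and let-7 axis, 4 of 20 were lower past the threshold with the double siRNA and none with a single one; Hmga2 was at 16.6 FPKM with the double siRNA, 22.2 FPKM with siDnmt3a and 20.4 FPKM with siDnmt3b, against 24.3 FPKM in siControl. None of 12 paralogs was past it in any of the 3 libraries. Feeder fibroblast markers summed to 643 to 673 FPKM in the 3 siRNA libraries against 828 FPKM in siControl, and 20 of 31, 21 of 30 and 21 of 31 tested were lower past the threshold with siDnmt3a, siDnmt3b and the double siRNA; their part in the differences of the 10 genes was not tested.

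The genes whose profile over the 8 libraries was most like that of a member were found among 10966 genes by the root mean square (RMS) difference of centred log2(FPKM + 1) values. For Pou5f1 they were Atp5l (RMS 0.0380) and Ngdn (0.0510), where the profile of Pou5f1 itself varied by an RMS of 0.154. For Sox2 they were Ccndbp1 (RMS 0.0225) and Pttg1 (0.0232), and for Trim71 they were Cd2bp2 (0.0299) and Gtf3c2 (0.0310). For Sall4 they were Mcm2 (0.0490) and Efcab7 (0.0498), and Mcm2 was at 114 and 103 FPKM in KI dox, 145 and 132 FPKM in KI vehicle, and 193 to 213 FPKM in the WT libraries. For Utf1 they were Dclre1c (0.0695) and Tyr (0.0786), and for Nr0b1 they were Hspb1 (0.0627) and Ngfr (0.0708). The largest RMS to a neighbour was that of Zfp296 and Lin28a: Tor3a (0.109) and H2-T24 (0.112) for Zfp296, and Spn (0.108) and Mns1 (0.110) for Lin28a. An RMS difference depends on how much a gene varies, and these profiles themselves varied by an RMS of 0.485 for Zfp296 and 0.570 for Lin28a.

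Tor3a shared the shape of Zfp296, at 18.8 and 18.2 FPKM in KI dox, 37.7 and 44.95 FPKM in KI vehicle and 15.1 to 18.4 FPKM in the WT libraries. Fbxo15 was nearest to Dstn (0.0497) and Slc41a1 (0.053), and Tcl1 to Cybb (0.0468) and Prr13 (0.0596). Cybb, a gene of the phagocyte oxidase, was at 15.1 and 17.3 FPKM in KI dox, 13.1 and 14.7 FPKM in KI vehicle, and 2.38 to 3.23 FPKM in the WT libraries. Among the 10 genes themselves the nearest were Pou5f1 and Trim71 (RMS 0.148), followed by Nr0b1 and Fbxo15 (0.208), Sox2 and Pou5f1 (0.213), and Sall4 and Lin28a (0.228). Each is the nearest of 9 genes and the neighbours above are the nearest of 10966, so the 2 cannot be compared. The profiles of Pou5f1, Trim71 and Sox2 themselves varied by an RMS of 0.154, 0.150 and 0.151. The difference of 0.213 between Sox2 and Pou5f1 was thus larger than the variation of either gene. That of 0.148 between Pou5f1 and Trim71 was about as large as their own variation. Being nearest among the 10 is therefore no sign of a shared profile for these pairs. With 8 libraries in 6 groups, 2 of them with replicates, such likeness describes these libraries only.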

How the data were processed

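Polyadenylated RNA was made into strand-specific (dUTP) libraries and sequenced on a HiSeq2500, per the labels' protocols. The authors deposited FPKM for 23284 gene symbols in 8 columns. Per the submitters' processing notes, the tools were Cuffnorm and Cufflinks 2.2.1 with TopHat2 2.0.10, Bowtie 1.0.0, SAMtools 0.1.19 and FastQC, on the build GRCm38 (mm10). No source used here gives the scaling option, the annotation or the strand setting of the counting. Exons of 5 of the 10 genes overlap those of a gene on the opposite strand in GENCODE M21, and if counting ignored strand their reads could not be told apart. Each FPKM is relative to its library's total, so abundant genes that rise lower the rest.

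Fragment totals are unknown here, and no counting intervals were computed. The low FPKM values step by what 1 fragment is worth, but at most 17.8% of genes shared the most common step ratio to siControl, so reads were not recovered. FPKM summed to between 486917 and 586657 per library.

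Differences of log2(FPKM + 1) were tested with limma 3.58.1 in R 4.3.3 (lmFit, eBayes with trend, two-sided, Benjamini-Hochberg adjustment over all genes, threshold 0.05), over genes with a mean of 1 FPKM or more in the libraries fitted. Dox against vehicle used the 4 KI libraries; KI vehicle against siControl used these and siControl; the siRNA effects used the 4 WT libraries. The fits were run on simulated data with independent noise and no clone effect, interaction, or GC and length trend. That run therefore could not check the assumptions on these. A siRNA library against siControl was counted at a log2 difference of 0.32 or more. Alternatives changed the pseudocount, the minimum, the scaling, the trend, the clone block, GC content and length, and left out single KI libraries.

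The titles name clones 1 and 2 in both KI groups, and the numbers were taken to pair the libraries. Clone 2 minus clone 1 in dox and the same in vehicle had a Pearson r of 0.441 across 11927 genes, which are not independent replicates, and 9 of the 10 genes had the same sign.

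The 10 genes and the 15 lists (175 entries, all matched, 1 through a synonym) were chosen with earlier results of these data known. Named were the 10 genes, up to 4 genes per list with the largest dox difference and up to 2 with the largest siRNA difference, the 2 genes most like each of the 10, and Dnmt3a and Dnmt3b; Fut4, Gemin7 and the Tcl1b genes were named after their values were seen. Promoters and microRNAs are from RefSeq (GRCm38.p6).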

Additional observations from a re-analysis of the deposited data

Results flagged for a closer look

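For 6 of the 10 genes the effect of the Dnmt3a siRNA on log2(FPKM + 1) had opposite signs with and without the Dnmt3b siRNA, positive with it and negative without it. The difference between these effects was 0.54 for Nr0b1, 0.40 for Zfp296, 0.35 for Utf1, 0.20 for Sall4, 0.10 for Trim71 and 0.082 for Lin28a. Each effect rests on 1 library against 1 library, and the difference between them was not tested. The double siRNA library enters all 6, as does the siControl library. The share of all genes with such opposite signs was not computed. Across genes the differences of the double siRNA library from siControl followed GC content and transcript length (Spearman's rho 0.511 and -0.517), as did, less closely, those of siDnmt3a (0.253 and -0.251) and siDnmt3b (-0.253 and -0.104). The values above are not corrected for this. After the correction the difference between the effects had a median of 0.11 over the 10 genes, against 0.18 before, and lay between -0.03 and 0.40. Corrected differences from siControl for Utf1 were 0.006 with the double siRNA, -0.10 with siDnmt3a and -0.005 with siDnmt3b.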

How the results depend on the processing

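For dox against vehicle, with the replicate block 6242 genes and 8 of the 10 factors were called, and with the replicate block and a GC and length correction 5856 genes and 9 factors, against 3802 genes and 4 factors without. The block alone gained Lin28a, Trim71, Pou5f1 and Tcl1, and with the correction also Fbxo15; it lost none of the 10. Without a minimum FPKM 2498 genes were called. Leaving out single KI libraries gave 1638 to 4057 genes and 2 to 5 factors for dox, and 3999 to 5747 genes and 6 to 8 factors for KI vehicle against siControl. Sall4 was lost with no minimum FPKM (limma adjusted p = 0.0513, range 8.48e-04 to 0.223).

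The Dnmt3a siRNA effect was called at 245 genes, and at 105 with a pseudocount of 0.1, 0 with no minimum FPKM (941 at an unadjusted p under 0.05), 142 without trend, 8 after correcting for GC content and length, and 4 in a fit of all 8 libraries. The Dnmt3b siRNA effect was called at 53, and at 29, 0 (610 unadjusted), 30, 4 and 0 (334 unadjusted) in the same order, and at 26 with a minimum of 5 FPKM (all limma). None of these called a factor.

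Past a log2 difference of 0.32 from siControl were 413 genes for siDnmt3a, 337 for siDnmt3b and 1767 for the double siRNA. For siDnmt3a they were 795 with a pseudocount of 0.1, 92 with 5, 643 with no minimum, 138 with a minimum of 5 FPKM and 18 at 2-fold. For siDnmt3b they were 671, 70, 562, 96 and 13 in the same order. For the double siRNA they were 784 with a pseudocount of 5, 1138 with a minimum of 5 FPKM, 835 with the correction and 28 at 2-fold.

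Signs turned only for differences that were not called. Sox2 with dox was 0.10 when scaled to Pou5f1, which shifts all genes alike, and Trim71 between the lines was -0.16 to 0.014 with single KI libraries left out. With the correction, the Dnmt3a siRNA effect was 0.032 for Fbxo15, 0.017 for Trim71, -0.044 for Utf1 and -0.022 for Zfp296, and the Dnmt3b siRNA effect was -0.039 for Zfp296; with median-ratio rescaling that of Sall4 was -0.0079. Where no value above shows it, the cause was not tested. Depth is unknown, and each siRNA comparison rests on 1 library per group.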
